A study of Mus musculus with 6 samples.

Results

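Nodal signalling was examined through 10 genes in day 4 embryoid bodies (EBs), aggregates of embryonic stem cells that differentiate in suspension. The genes were the ligands Nodal and Gdf3, the co-receptors Tdgf1 and Cfc1, the receptors Acvr1b and Acvr2b, the nuclear partner Foxh1, and the secreted antagonists Lefty1, Lefty2 and Cer1. They were taken by symbol from the 23353 genes of the deposited table and belong together by their place in the pathway. All 10 passed the filter on low values, which kept 13136 genes.

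Nodal is a secreted ligand of the TGF-β family that patterns the early embryo and drives formation of mesoderm and endoderm at the primitive streak. It binds type I and type II activin receptors on cells that carry an EGF-CFC co-receptor, and the activated receptors phosphorylate SMAD proteins that enter the nucleus with FOXH1. Nodal and both Lefty genes are themselves targets of the pathway, so that the signal feeds both its own ligand and its own inhibitors, while Cer1 marks anterior visceral endoderm and definitive endoderm.

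The compared cells were wildtype W9.5 mouse embryonic stem cells, the parental line that had not been edited, and EVX1-Δfs clone 14, a CRISPR-Cas9 edited derivative of W9.5. Evx1 encodes a homeodomain transcription factor of the posterior primitive streak. Clone 14 is compound heterozygous, with small frameshift deletions in the exon 2 homeodomain sequence of both Evx1 alleles, and it is 1 clone set against an uncloned parental line. Both were differentiated in serum without LIF for 4 days, side by side, with 3 libraries per genotype that were started on different days. The guide that directed the edit is shown because it is the only sequence difference intended between the genotypes. It matched the plus strand of the mouse assembly NCBIM37 at chr6:52265847-52265866, in exon 2 of the 3 Evx1 exons, where it was followed by the PAM CGG.

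Evx1 indel guide: ccagatgcgccgataccgca

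Between 7597879 and 9914471 reads were assigned to genes per library, and 15998 to 16479 genes had a read. Normalized read counts of Evx1 ranged from 2176 to 2400.0 in wildtype and from 2012 to 2516 in EVX1-Δfs, so small deletions do not show in its gene count and the genotype labels were not checked by it. The streak and mesoderm genes T, Mixl1 and Eomes were well above the filter in every library. Afp and Ttr, 2 of 12 genes listed below for extra-embryonic visceral endoderm, had at most 3 reads in any library. Other genes of that list had more reads per library, such as Cubn (3 to 26), Rbp4 (8 to 29), Sox7 (18 to 89) and Dab2 (37 to 65).

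Cer1 was raised 11.1-fold in EVX1-Δfs EBs, Cfc1 was raised 1.68-fold and Foxh1 fell to 0.650 of its wildtype mean, while the ligands, the main co-receptor, both receptors and both Lefty genes did not pass the test. Genes were called at a Benjamini-Hochberg adjusted p under 0.05 in limma, adjusted over all genes tested, with log2 fold changes given as EVX1-Δfs over wildtype on log2(normalized count + 1). Of the 10 genes, 2 were called higher where 2.08% of all tested genes were, and 1 was called lower where 2.95% were. The 3 calls compare with 5.02% of tested genes called in either direction. Across all tested genes 273 were called higher and 387 lower, or 76 higher and 146 lower with the replicate number as a block. With that block the same 3 pathway genes were called by limma. The study's text also names Cer1 and Cfc1 among its changed genes in these libraries, so their calls are not independent of it. In bulk EBs, fewer cells of a type and less RNA per cell cannot be told apart for any gene described here.

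**Figure D1:**
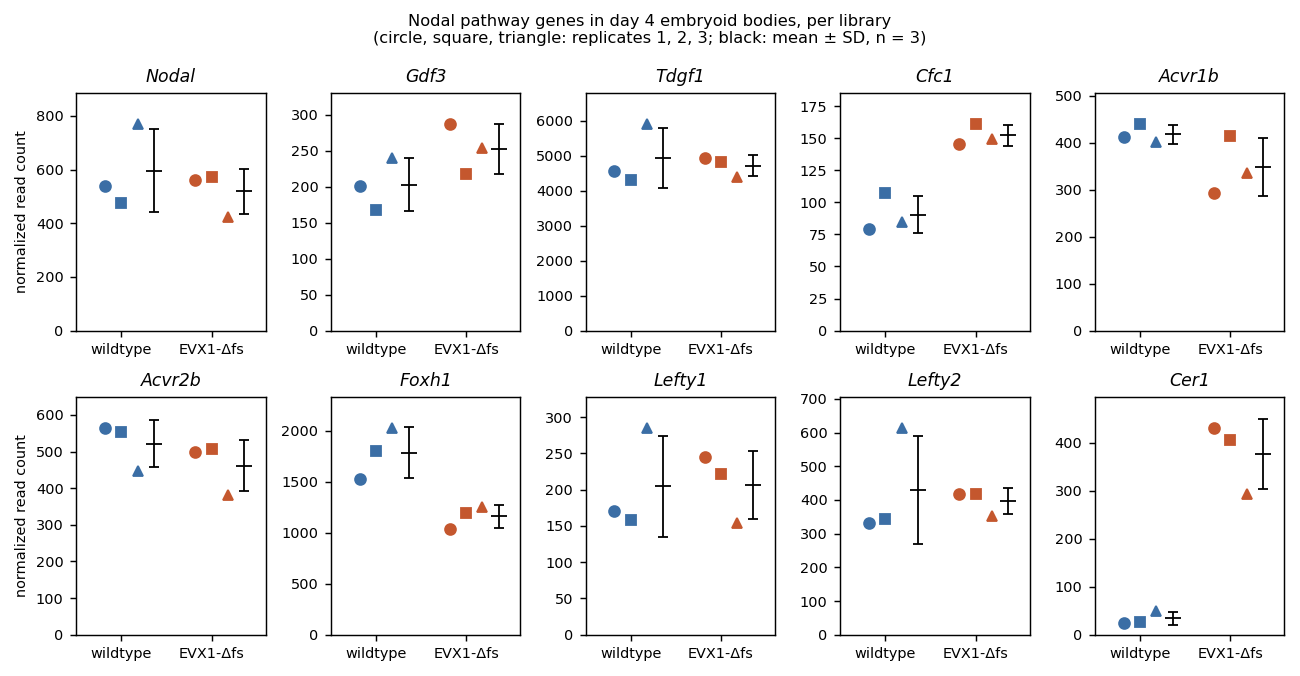
Normalized read counts (vertical axis, from 0) of each gene in the 3 wildtype and 3 EVX1-Δfs libraries; circles, squares and triangles are replicates 1, 2 and 3 and black bars are the mean ± SD. Cer1 and Cfc1 were higher in all EVX1-Δfs libraries, Foxh1 was lower in all of them, and the other 7 genes overlapped.

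The 250 bases upstream of the start site are shown for Cer1 and Cfc1, the genes called higher, and for Tdgf1, the paralogue of Cfc1 that was not called. They come from the RefSeq promoter table (build GRCm38.p6), which held 6 of the 10 genes, namely Nodal, Cer1, Cfc1, Tdgf1, Acvr1b and Acvr2b. Lefty1, Lefty2, Foxh1 and Gdf3 are named only. The table's windows were each found exactly once in NCBIM37, and the bases shown lie at chr4:82531056-82531305 on the minus strand for Cer1, chr1:34592243-34592492 on the plus strand for Cfc1 and chr9:110848663-110848912 on the minus strand for Tdgf1. Capitals mark matches on either strand to TGTNNATT, the FOXH1 motif, to CAGAC, the SMAD motif, and to TAATTA, a homeodomain core that reads the same on both strands.

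Cer1: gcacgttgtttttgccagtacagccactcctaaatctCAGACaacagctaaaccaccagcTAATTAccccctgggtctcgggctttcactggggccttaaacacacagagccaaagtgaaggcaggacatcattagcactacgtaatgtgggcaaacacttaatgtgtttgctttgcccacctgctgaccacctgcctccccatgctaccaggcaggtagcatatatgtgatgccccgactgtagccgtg
Cfc1: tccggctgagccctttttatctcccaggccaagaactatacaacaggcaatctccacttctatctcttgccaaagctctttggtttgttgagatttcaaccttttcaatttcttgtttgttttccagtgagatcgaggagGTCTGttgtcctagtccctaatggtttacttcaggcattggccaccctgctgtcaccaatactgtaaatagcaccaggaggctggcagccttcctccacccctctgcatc
Tdgf1: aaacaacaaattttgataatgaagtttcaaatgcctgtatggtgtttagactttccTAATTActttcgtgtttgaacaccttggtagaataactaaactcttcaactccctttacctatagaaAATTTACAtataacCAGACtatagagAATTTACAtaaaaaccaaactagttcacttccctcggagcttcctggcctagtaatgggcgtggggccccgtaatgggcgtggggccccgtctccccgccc

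The Cer1 window held 1 SMAD match, first base 213 bases before the start site, and 1 homeodomain match at 190. Cfc1 held only a SMAD match, read on the opposite strand as GTCTG. Tdgf1 held 2 FOXH1 matches on the opposite strand, with a SMAD match between them, and 1 homeodomain match further upstream. None of these matches overlapped another. Over the full 300 base windows, which also take in the first 50 transcribed bases, the FOXH1 motif was in 1 of the 6 promoters and in 12.21% of all 32851 promoters of the table. The SMAD motif was in 4 of 6 and in 49.59% of all, and the homeodomain core was in 2 of 6 and in 5.291% of all. Acvr2b held 1 SMAD match, and Nodal and Acvr1b held no match to any of the 3. The matches are letters only, and binding was not measured.

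Nodal, the main ligand of the pathway (chr10:60880720-60888086, plus strand), had normalized counts of 541, 475 and 771 in wildtype and 559, 573 and 423 in EVX1-Δfs libraries, given here and below in the order of replicates 1, 2 and 3. The highest library was wildtype and the lowest was EVX1-Δfs, with the remaining 4 in between and the genotypes overlapping. The means were 595 ± 155 and 518 ± 82.8 (SD, n = 3). The log2 fold change of −0.18 had an SE of 0.16, a 95% interval of −0.50 to 0.14 and an adjusted p of 0.511. Without wildtype replicate 3 the value was 0.02, so its sign rested on that library, and it was −0.33 without wildtype replicate 2 and −0.04 without EVX1-Δfs replicate 3. In the same-numbered pairs Nodal differed by 0.05, 0.27 and −0.86 on the log2 scale for replicates 1, 2 and 3.

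Gdf3 encodes a Vg1-related ligand that also acts through the EGF-CFC co-receptors (chr6:122555421-122560105, minus strand). Its counts were 201, 167 and 240.5 in wildtype and 288, 218 and 253 in EVX1-Δfs libraries. It was higher in EVX1-Δfs in all 3 same-numbered pairs, but the genotypes overlapped, and the share of all tested genes that did so was not counted. The log2 fold change was 0.32 ± 0.16 with a 95% interval of −0.01 to 0.65, and the adjusted p of 0.224 did not pass. Without wildtype replicate 2 the value was 0.19.

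The EGF-CFC co-receptors, which are tethered to the cell surface and let Nodal engage its receptors, parted in their results. Tdgf1, also known as Cripto (chr9:110842114-110848662, minus strand), had counts of 4564, 4312 and 5908 in wildtype and 4932, 4825 and 4378 in EVX1-Δfs libraries. It overlapped between genotypes, with all 3 EVX1-Δfs libraries inside the wildtype range. Its log2 fold change was −0.05 ± 0.12, with a 95% interval of −0.31 to 0.21 and an adjusted p of 0.837. Without wildtype replicate 3 it was 0.08. A stretch of 1857 Tdgf1 transcript bases aligned at 94.99% identity to chr16:3730260-3732692, where no gene is annotated, and pseudogene copies lie on chromosomes 2 and 17, so how reads were divided between these copies is uncertain.

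Cfc1, also known as Cryptic (chr1:34592493-34601156, plus strand), encodes the co-receptor best known for left-right patterning. Its counts were 79.4, 107 and 84.7 in wildtype and 146, 161 and 149.6 in EVX1-Δfs libraries. Every EVX1-Δfs library was above every wildtype library, an arrangement found for 12.2% of all tested genes. The means were 90.4 ± 14.7 and 152 ± 8.12 (SD, n = 3), and the log2 fold change of 0.76 had an SE of 0.17, a 95% interval of 0.39 to 1.12 and an adjusted p of 0.0163. These counts stand on 74 to 121 reads per wildtype library and 143 to 157 per EVX1-Δfs library. The call was lost without wildtype replicate 1, where the log2 fold change was 0.67 and the adjusted p 0.0570, and without EVX1-Δfs replicate 3, where they were 0.77 and 0.0566. With the replicate block, DESeq2 gave Cfc1 no adjusted p. The difference between the fold changes of Cfc1 and Tdgf1 was not tested.

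The receptors had slightly lower means in EVX1-Δfs EBs, but they did not pass the test and both intervals took in 0. Acvr1b, the type I receptor for Nodal and activin (chr15:101004556-101043032, plus strand), had counts of 412, 441 and 401 in wildtype and 293, 415 and 335 in EVX1-Δfs libraries. EVX1-Δfs replicate 2 lay inside the wildtype range and the other EVX1-Δfs libraries below it. The log2 fold change was −0.28 ± 0.14, with a 95% interval of −0.56 to 0.01 and an adjusted p of 0.228. Without EVX1-Δfs replicate 1 it was −0.16.

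Acvr2b, a type II receptor (chr9:119311562-119342619, plus strand), had counts of 564, 553 and 448 in wildtype and 498, 506 and 381 in EVX1-Δfs libraries. Replicate 3 was the lowest of each genotype, and the genotypes overlapped. The log2 fold change was −0.18 ± 0.14, with a 95% interval of −0.46 to 0.10 and an adjusted p of 0.449. It was −0.12 without wildtype replicate 1, −0.29 without wildtype replicate 3 and −0.05 without EVX1-Δfs replicate 3. Both receptors were lower in EVX1-Δfs in all 3 same-numbered pairs, by 0.49, 0.09 and 0.26 for Acvr1b and by 0.18, 0.13 and 0.23 for Acvr2b on the log2 scale. The share of all tested genes lower in all 3 pairs was not counted. Libraries of the same number shared little deviation (correlations 0.111, 0.00933 and −0.101), so agreement of the pairs adds little. Removing each library's trends on GC content and length moved the Acvr2b value to 0.04.

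Foxh1, the forkhead partner of the SMAD proteins at Nodal targets (chr15:76498714-76500378, minus strand), had counts of 1529.7, 1795 and 2026 in wildtype and 1035, 1192 and 1249 in EVX1-Δfs libraries. Every EVX1-Δfs library was below every wildtype library, as in 14.7% of all tested genes. The means were 1784 ± 248 and 1159 ± 111 (SD, n = 3), and the log2 fold change of −0.62 had an SE of 0.12, a 95% interval of −0.87 to −0.37 and an adjusted p of 0.00551. The same-numbered pairs differed by −0.56, −0.59 and −0.70, the closest to each other of the 3 called genes. Leaving out any 1 library kept the call. Fold changes fell with exon GC content across 12978 genes (Spearman's rho −0.46, a description across genes), and 59.7% of the Foxh1 exon bases are G or C. With the GC and length trends removed its log2 fold change was −0.43 and its adjusted p 0.0682, no longer called.

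**Figure D2:**
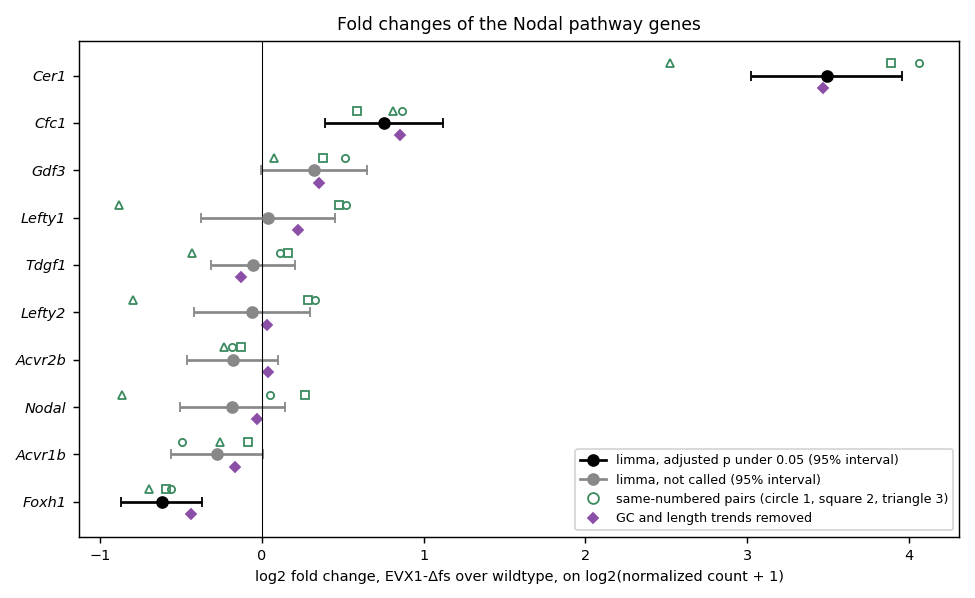
Log2 fold change of each gene, EVX1-Δfs over wildtype, on log2(normalized count + 1) (horizontal axis): limma estimates with 95% intervals (black if called, grey if not), each same-numbered pair (open green symbols) and the estimate with GC and length trends removed (purple diamonds). Cer1 stands at 3.49, Cfc1 at 0.76 and Foxh1 at −0.62, and pair 3 lies below pairs 1 and 2 for all genes but Cfc1 and Acvr1b.

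The Lefty proteins bind Nodal and its co-receptors and block signalling. Lefty1 (chr1:182865153-182868531, plus strand) had counts of 170.3, 158 and 285 in wildtype and 245, 221 and 154 in EVX1-Δfs libraries. Wildtype replicate 3 was the highest and EVX1-Δfs replicate 3 the lowest of the 6. The log2 fold change was 0.04 ± 0.20, with a 95% interval of −0.37 to 0.45 and an adjusted p of 0.930. It was 0.30 without wildtype replicate 3 and below 0 without wildtype replicates 1 or 2 or EVX1-Δfs replicates 1 or 2, down to −0.12.

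Lefty2 (chr1:182823239-182829234, plus strand) had counts of 333, 342 and 614 in wildtype and 418, 418 and 354 in EVX1-Δfs libraries. Wildtype replicate 3 again stood above all other libraries, and EVX1-Δfs libraries lay within the wildtype range. The log2 fold change was −0.06 ± 0.17, with a 95% interval of −0.42 to 0.30 and an adjusted p of 0.872. Its sign turned without wildtype replicate 3 and without EVX1-Δfs replicate 3, up to 0.23 at most, and it was 0.04 with the GC and length trends removed.

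Lefty1 and Lefty2 are neighbours with similar transcripts. They share 281 runs of 50 identical bases, which is 17.89% of those in the Lefty1 transcript and 11.59% of those in Lefty2, so reads from these runs cannot be told apart and the split between the genes is uncertain. A stretch of 964 to 986 bases of the Lefty2 transcript also aligned to 24 other places in the genome at 78.71% to 87.59% identity, 19 of them with no annotated gene. Taken as a sum, the counts of both were 503, 501 and 899 in wildtype and 663, 639 and 508 in EVX1-Δfs libraries, which overlap in the same way as each gene. There were 1.96, 2.16 and 2.15 Lefty2 counts per Lefty1 count in wildtype and 1.71, 1.89 and 2.29 in EVX1-Δfs libraries.

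Cer1, encoding Cerberus-like 1, which binds Nodal, BMP and WNT ligands outside the cell (chr4:82527655-82531052, minus strand), moved far more than the other antagonists. Its counts were 24.9, 26.5 and 50.4 in wildtype and 431, 406 and 294 in EVX1-Δfs libraries. Replicate 3 was the lowest EVX1-Δfs library and also the highest wildtype library, and these 2 values were still far apart. The means were 33.9 ± 14.3 and 377 ± 72.8 (SD, n = 3), and the log2 fold change of 3.49 had an SE of 0.23, a 95% interval of 3.02 to 3.96 and an adjusted p of 2.37e-09. It was called under every alternative in which it was fitted, and leaving out 1 library at a time gave 3.31 to 3.81.

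The wildtype value of Cer1 rests on few reads. Cer1 had 26, 30 and 44 reads in the wildtype libraries against 462, 360 and 309 in the EVX1-Δfs libraries. The exact Poisson 95% intervals, on the normalized scale, were 16.2 to 36.4, 17.9 to 37.9 and 36.6 to 67.6 in wildtype and 393 to 473, 365 to 450.2 and 263 to 329 in EVX1-Δfs libraries. These intervals cover counting error only. The intervals of wildtype replicates 1, 2 and 3 overlapped or nearly met, those of EVX1-Δfs replicates 1 and 2 overlapped, and that of EVX1-Δfs replicate 3 lay below both. In same-numbered pairs the log2 difference was 4.06, 3.89 and 2.52.

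The balance of antagonist to ligand transcripts was set out within each library, on levels per kilobase of exon and with no test. Exon lengths are those of GENCODE vM1, and the annotation used for counting is not given, so levels of different genes compare only roughly. The Cer1 level was 0.0554, 0.0673 and 0.0788 of the Nodal level in wildtype and 0.929, 0.854 and 0.838 of it in EVX1-Δfs libraries. The ratio of the summed Lefty levels to Nodal was 0.870, 0.975 and 1.08 in wildtype and 1.12, 1.05 and 1.11 in EVX1-Δfs libraries. The Lefty ratios of the genotypes overlapped and the Cer1 ratios did not.

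Cer1 made up 5.99%, 6.45% and 6.80% of the summed level of the 3 antagonists in wildtype and 45.3%, 44.9% and 43.1% in EVX1-Δfs libraries. Together the 3 antagonists stood at 0.925, 1.04 and 1.16 of the Nodal level in wildtype and at 2.05, 1.90 and 1.94 of it in EVX1-Δfs libraries. The antagonist transcripts thus stood near Nodal in wildtype libraries, above it in replicates 2 and 3, and further above it in every EVX1-Δfs library. Of the parts of this sum, the Lefty ratios overlapped between genotypes and the Cer1 ratios did not. The uncertain assignment of Lefty reads carries over to these sums and to the Cer1 shares. The ratio of Tdgf1 to Cfc1 was 31.0, 21.7 and 37.6 in wildtype and 18.3, 16.1 and 15.8 in EVX1-Δfs libraries, so Tdgf1 was the main co-receptor transcript in all 6.

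**Figure D3:**
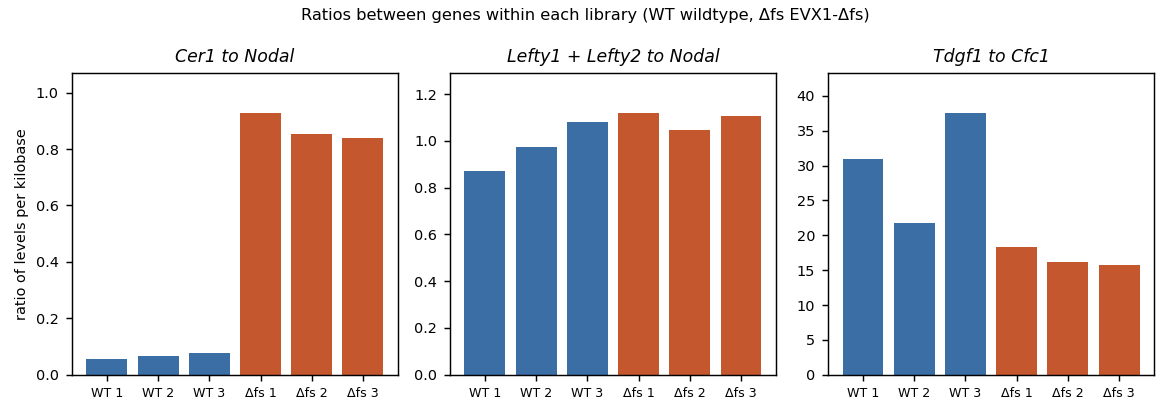
Ratios of levels per kilobase of exon within each library (bars from 0; blue wildtype, orange EVX1-Δfs; 1 bar per library). The Cer1 to Nodal ratio was at most 0.0788 in wildtype and at least 0.838 in EVX1-Δfs, the Lefty to Nodal ratio overlapped, and the Tdgf1 to Cfc1 ratio was lower in every EVX1-Δfs library.

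By level, in normalized counts per kilobase of exon, Tdgf1 came first in wildtype EBs with 2560 ± 446 (SD, n = 3), followed by Foxh1 with 1366 ± 190.0. Acvr2b (298 ± 36.7) and Nodal (284 ± 74.1) followed, then Lefty2 (165 ± 61.1), Acvr1b (128 ± 6.27), Lefty1 (116 ± 39.8), Gdf3 (95.5 ± 17.2) and Cfc1 (87.1 ± 14.1). Cer1 was lowest, at 19.5 ± 8.20. Ranges of neighbours in this order overlapped from Acvr2b to Cfc1, and were separate between Tdgf1 and Foxh1, Foxh1 and Acvr2b, and Cfc1 and Cer1. The order rests on the GENCODE vM1 exon lengths, which may differ from those of the annotation used for counting.

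In EVX1-Δfs EBs the order again began with Tdgf1 (2448 ± 153), Foxh1 (887 ± 84.8), Acvr2b (263 ± 39.9) and Nodal (247 ± 39.5). Cer1 came 5th, at 217 ± 41.9, and its range overlapped that of Nodal. Below it were Lefty2 (152 ± 14.3) and Cfc1 (147 ± 7.83), which overlapped, and then Gdf3 (119 ± 16.4), Lefty1 (118 ± 26.6) and Acvr1b (106 ± 18.9), which overlapped as neighbours. Cer1 thus moved from the 10th to the 5th place among the genes. Acvr1b went from the 6th to the last, but limma did not call it (adjusted p 0.228) and its range overlapped that of its neighbours in both genotypes.

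Several of the genes varied alike between replicates of the same genotype. Wildtype replicate 3 exceeded the mean of wildtype replicates 1 and 2 by 0.94 for Cer1, 0.86 for Lefty2, 0.79 for Lefty1 and 0.60 for Nodal on the log2 scale. A difference of 0.5 or more was found in 5.00% of tested genes, with a median of 0.01 over all of them. Tdgf1 (0.41), Gdf3 (0.39) and Foxh1 (0.29) were also higher there, whereas Cfc1 (−0.12), Acvr1b (−0.09) and Acvr2b (−0.32) were not.

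In EVX1-Δfs, replicate 3 was the lowest library for Nodal, Tdgf1, Lefty1, Lefty2, Cer1 and Acvr2b. In the third pair the fold changes of Nodal, Tdgf1, Lefty1 and Lefty2 were therefore all negative, at −0.86, −0.43, −0.88 and −0.79, against 0.05 to 0.52 in the other pairs. The summed counts of 8 epiblast and pluripotency genes moved beside this, at 15966, 13522 and 20938 in wildtype and 22060, 18099 and 17527 in EVX1-Δfs libraries. Pou5f1 and Dnmt3b made up most of this sum, and of the EVX1-Δfs libraries these genes and Fgf5 were lowest in replicate 3. The rest of the list did not follow the sum there. Nanog, Sox2, Utf1 and Zfp42 were lowest in EVX1-Δfs replicate 2 and Esrrb in EVX1-Δfs replicate 1, with Esrrb highest in replicate 3. Of the wildtype libraries Nanog was highest in replicate 1. The part of these cells in the spread was not tested.

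**Figure D4:**
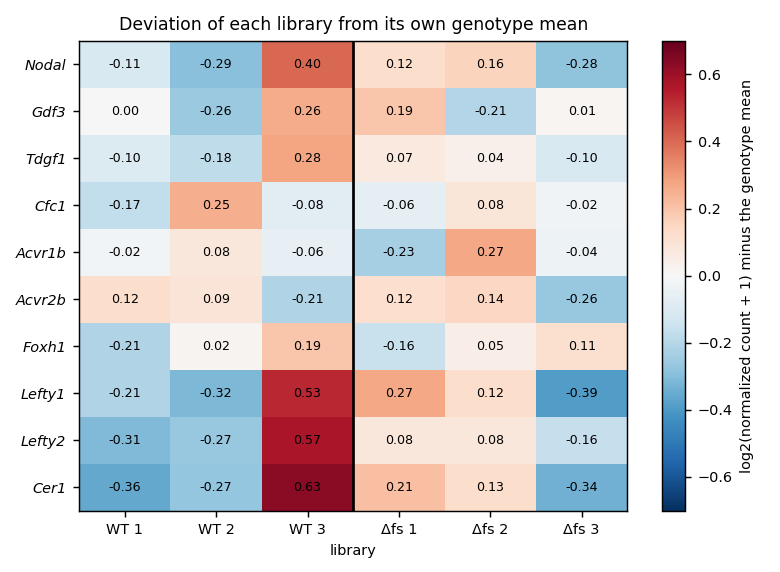
Deviation of each library (columns; WT wildtype, Δfs EVX1-Δfs) from the mean of its own genotype for each gene (horizontal bands), in log2(normalized count + 1), red above and blue below. Nodal, Lefty1, Lefty2 and Cer1 are highest in wildtype replicate 3 (0.40 to 0.63 above the mean) and lowest of the EVX1-Δfs libraries in replicate 3.

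The genes whose profile over the 6 libraries was nearest to each called gene were named by the smallest root mean square difference of centred log2 values among 10620 other genes with a mean count of at least 50. The profiles hold the genotype difference itself, so a near gene has a like fold change by selection. The changes and calls of such genes are therefore no separate result. For Cer1 the nearest were Grb10 (0.950), Zfhx4 (1.06) and Podn (1.10), so that no candidate came close to its profile. Grb10, an imprinted adaptor of growth factor receptors, went from 248 ± 34.0 to 867 ± 69.5, a log2 fold change of 1.81. The study reports that Grb10 also differed between EVX1-Δfs EBs and EBs with a larger deletion at the Evx1 locus. Besides it, only Evx1 and its antisense transcript did so there. Whether the change of Grb10 follows from the loss of EVX1 or belongs to the clone was not tested. For Cfc1 the nearest were Flt1 (0.0424), Immp1l (0.0533) and Tug1 (0.0753), of which Immp1l was not called, at an adjusted p of 0.0503. Flt1, a receptor for VEGF, went from 181 ± 22.6 to 304 ± 11.9 with an adjusted p of 0.00413.

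For Foxh1 the nearest profiles were Slc35a4 (0.0618), Hhex (0.0798) and Efemp2 (0.0851). Hhex, a homeobox gene of anterior endoderm, was not called (−0.57, adjusted p 0.129). Slc35a4 (−0.58, adjusted p 0.0162) lost its call without wildtype replicate 3 (0.0622) or EVX1-Δfs replicate 1 (0.0695). Efemp2 (−0.48, adjusted p 0.0408) lost it without wildtype replicate 2 (0.0870) or 3 (0.112), without EVX1-Δfs replicate 1 (0.152) or 3 (0.104), and with the replicate block (0.0641 in limma). With the GC and length trends removed Tug1, Slc35a4 and Efemp2 were not called (adjusted p 0.117, 0.0572 and 0.223).

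The rest of the pathway was followed through 40 further genes in 6 lists, of which 36 were tested. Of these 3 were called higher and 5 lower, where 2.08% of all tested genes were called higher and 2.95% lower. The median log2 fold change of the 36 was −0.06, beside a median of 0.00 over all tested genes and −0.06 over the 10 genes above. With the replicate number as a block, limma called 2 of the 36, Mixl1 among them, where it called 76 higher and 146 lower of all 13136 genes. All 8 calls were in the inhibitors within the cell or at its surface and in the response genes.

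Among the 4 other ligands, Inha, an inhibin subunit, was the only one tested (log2 fold change 0.02, adjusted p 0.976). Inhba, the activin A subunit, reached a normalized count of at most 6.19 and Gdf1 had no read. Limma called none of the 3 proprotein convertases, which cleave the Nodal precursor (median −0.24), and 1 had an unadjusted p under 0.05, as had 3028 of all 13136 tested genes (23.1%). The most abundant, Furin, had a value of −0.24 with an adjusted p of 0.244 and Pcsk6 of 0.03 with 0.918. Limma called none of the 5 tested of 6 other receptors (median 0.09), among them Tgfbr1 (0.23, adjusted p 0.308) and Acvr2a (0.09, adjusted p 0.788). It called none of the 5 intracellular transducers (median 0.17), among them Ep300, a coactivator of SMAD proteins (0.17, adjusted p 0.436), and Trim33 (0.18, adjusted p 0.360). In these ligand, receptor and transducer lists 0 genes had an unadjusted p under 0.05, and DESeq2 and edgeR, which called 6.89% and 5.3% of the genes they gave an adjusted p, called 0 in any of the 4 lists.

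Of 12 other inhibitors, 1 was called higher and 1 lower (median −0.06), where 2.08% and 2.95% of all tested genes were. DESeq2 called 3, the third being Drap1, where it called 6.89% of the genes it gave an adjusted p. Skil, which encodes the SMAD corepressor SnoN, went from 1184 ± 100.1 to 1569 ± 189 (log2 fold change 0.40, SE 0.12, adjusted p 0.0477). That call was lost on leaving out any 1 of the 6 libraries (adjusted p 0.0516 to 0.206), with the replicate block (0.0730 in limma), when every gene with a read was tested (0.0589) and with the GC and length trends removed (log2 fold change 0.10). Bambi, a decoy receptor, went from 527 ± 145 to 352 ± 29.2 (log2 fold change −0.55, SE 0.16, adjusted p 0.0436). It stayed called only without wildtype replicate 1 among the libraries left out, with adjusted p of 0.189 and 0.0739 without wildtype replicates 2 and 3 and of 0.148, 0.0686 and 0.0908 without EVX1-Δfs replicates 1, 2 and 3, and it was 0.0578 with the replicate block in limma, 0.0658 with it in edgeR and 0.0534 when every gene with a read was tested. DESeq2 with the block called it (0.0485).

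Of 10 genes known to respond to Nodal or activin, 2 were called higher and 4 lower (median −0.39), where 2.08% and 2.95% of all tested genes were. Many of these 10 genes are discussed in the study from these same libraries, so the list is not independent of it. Foxa2 and Sox17, transcription factors of definitive endoderm, were raised, Foxa2 from 45.7 ± 16.4 to 96.1 ± 22.3 (log2 fold change 1.09 ± 0.25, adjusted p 0.0159) and Sox17 from 47.3 ± 13.0 to 89.3 ± 23.9 (0.91 ± 0.24, adjusted p 0.0334). The homeobox gene Mixl1 fell from 1274 ± 175 to 718 ± 159.9 (−0.84 ± 0.14, adjusted p 0.00143) and T, or Brachyury, from 4643 ± 655 to 3101 ± 449.6 (−0.58 ± 0.13, adjusted p 0.0122). Eomes, a T-box gene of the streak named after its values were seen, also fell (−0.50, adjusted p 0.0194).

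Mixl1 kept its call whichever library was left out and with the replicate block. In limma the block took the calls of Foxa2 (adjusted p 0.0667), Sox17 (0.0564), T (0.0566) and Eomes (0.0586), as it did in edgeR. In DESeq2 with the block T (0.00905) and Eomes (0.0187) were called, and Foxa2 and Sox17 had no adjusted p. Foxa2 also lost its call without EVX1-Δfs replicates 1 (0.0691) or 2 (0.0714), and T without EVX1-Δfs replicate 1 (0.0748). Sox17 lost it without wildtype replicates 1 (0.121) or 3 (0.0505) or EVX1-Δfs replicates 1 (0.0795) or 2 (0.133), and Eomes without wildtype replicate 3 (0.0547) or EVX1-Δfs replicates 1 (0.0665) or 3 (0.0786). Removing the GC and length trends ended the call of Eomes (0.0545), and with the block besides also those of T (0.0873) and Sox17 (0.0539), while testing every gene with a read ended that of Sox17 (0.0595).

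**Figure D5:**
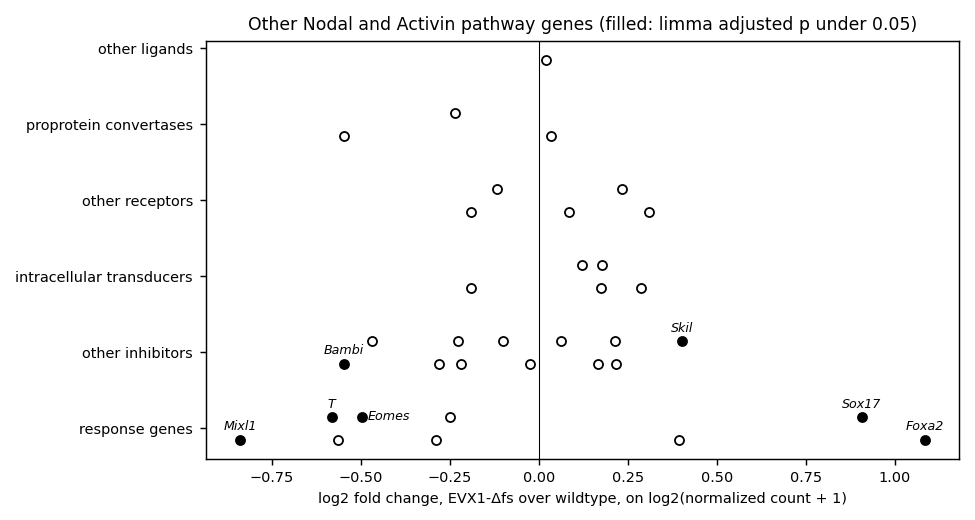
Log2 fold change, EVX1-Δfs over wildtype, on log2(normalized count + 1) (horizontal axis) for the tested genes of the 6 pathway lists, apart from 1 gene not reported here; filled and named points had a limma adjusted p under 0.05 and points are offset vertically for legibility. Called genes lie only in the inhibitor and response lists, with 3 to the right and 4 to the left of 0.

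Markers of cell types that EBs can hold were counted beside the changes in Cer1, Cfc1 and Foxh1. Of 11 nascent and posterior mesoderm genes 8 were called lower and none higher (median −0.90), where 2.95% of all tested genes were called lower and 2.08% higher. The calls were led by Hand1 (−1.28), Mesp1 (−1.02), Tbx6 (84.7 ± 11.5 to 41.7 ± 3.75) and Mesp2 (−0.95). Summed counts were 17593 to 18122 in wildtype and 10453 to 13104 in EVX1-Δfs libraries. The study names many of these mesoderm genes, and Sox17, Foxa2 and Nanog of the lists below, as changed in these same libraries. The marker lists are thus not independent of it. The Mesp2 call was lost without wildtype replicate 3 (adjusted p 0.0606) or EVX1-Δfs replicate 3 (0.0790), and with the replicate block in limma (0.0628) and edgeR (0.0770). T, Mixl1 and Evx1 are in the mesoderm list, and T and Mixl1 also in the response list.

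Of 8 anterior visceral and definitive endoderm genes, 7 were tested and 2 were called higher, Foxa2 and Sox17, where 2.08% of all tested genes were. The list had a median of −0.04 and summed counts of 1447 to 2020 in wildtype and 1312 to 2046 in EVX1-Δfs libraries. The sums of the genotypes overlapped, whereas the Cer1 counts did not. Lhx1, at means of 747 in wildtype and 641 in EVX1-Δfs, made up most of the sums together with Gsc, Otx2 and Dkk1. Foxa2 and Sox17 were a small part of the sums, which therefore say little about these genes. Of 12 extra-embryonic visceral endoderm genes, 6 were tested and limma, DESeq2 and edgeR called 0 (median −0.38), with sums of 765 to 966 in wildtype and 622 to 817 in EVX1-Δfs libraries. In limma 4 of the 6 had an unadjusted p under 0.05, as had 23.1% of all tested genes. These were Rbp4, Sox7, Gata4 and Gata6, all lower in EVX1-Δfs, while Cubn and Dab2 were each at 0.21. The median leaves out the genes that did not pass the filter. Of those, Hnf4a went from a mean count of 2.31 to 7.98, Amn from 4.94 to 7.29 and Apob from 8.66 to 10.7. Afp and Apoa1 also rose and Ttr fell, on very few reads. The most abundant of the 12 were Gata6 and Gata4, which other cells also express, at log2 fold changes of −0.38 each and adjusted p of 0.146 and 0.112.

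Of 8 epiblast and pluripotency genes 1 was called higher, Fgf5 (0.61, adjusted p 0.0293), with a median of 0.41, where 2.08% of all tested genes were called higher. DESeq2 and edgeR each called 5 of the 8, adding Nanog, Sox2, Zfp42 and Esrrb, where they called 2.44% and 2.39% of the genes they gave an adjusted p higher. Fgf5 lost its call without wildtype replicates 1 (0.0533) or 2 (0.114) or EVX1-Δfs replicates 1 (0.131) or 2 (0.0572), with the GC and length trends removed (0.0522), and with the replicate block in limma (0.0624) and edgeR (0.0674) but not in DESeq2 (0.0412). Of 6 neurectoderm genes 2 were tested and limma, DESeq2 and edgeR called 0 (1 with an unadjusted p under 0.05), with Nes at a log2 fold change of 0.00 (adjusted p 0.999) and Pax6 at 1.31 (adjusted p 0.0803). The part of any of these cell types in the changes of Cer1, Cfc1 and Foxh1 was not tested.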

How the data were processed

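mRNA-seq was measured in day 4 EBs of wildtype W9.5 cells and EVX1-Δfs clone 14, with 3 libraries each, grouped and numbered by the sample labels. According to the methods, the authors aligned Ion Proton reads to mm9, first with TopHat2 and then with TMAP, and used standard HTSeq settings to count them. Versions and the gene annotation are not given in the sources used here. The deposited values are a normalized signal, read counts divided by 1 factor per library. All values (100%, tolerance 0.001) came out as whole reads, and the factors differed by at most 0.00577% from DESeq2 size factors. Rn45s took 1.87% to 4.95% of reads.

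limma (3.58.1, with a trend) was fitted on log2(normalized count + 1), a scale that understates the change of low genes, for the 13136 genes that reached a normalized count of 10 in 3 or more libraries. DESeq2 (1.42.0) and the quasi-likelihood test of edgeR (4.0.16) took the recovered reads, in R 4.3.3, as alternatives. The limma fits with and without the replicate block, and the DESeq2 and edgeR fits without it, were first tested on simulated data of known fold changes. That simulation held no replicate effect and no GC trend, and the remaining settings were not simulated. Other alternatives changed the pseudocount, filter, scaling, replicate block, GC and length trends (splines with 5 degrees of freedom) and the libraries included. The replicate number was taken to pair libraries, since the design states that side by side differentiations were begun on different days. Over 13136 genes, libraries of the same number shared little deviation from their genotype means (correlations 0.111, 0.00933 and −0.101). No 2 libraries agreed within sampling noise. Nothing states that replicates came from separate stocks of cells, so p-values measure the spread between these differentiations of 1 clone and 1 parental line.

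Gene positions and exon lengths are those of GENCODE vM1 on NCBIM37 (mm9), where 21981 symbols (94.1%) matched. Similar copies were sought with minimap2 (2.31-r1302) and by runs of 50 shared bases. The guide comes from the study's supplementary tables. The genes and lists were chosen with earlier results of these data known. Genes were named as follows: the 10 genes, up to 4 called genes of each list with the largest absolute log2 fold change or, where none was called, those with the highest means, and the 3 nearest profiles to each called gene. Some results that met this rule are not reported here.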

Additional observations from a re-analysis of the deposited data

How the results depend on the processing

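Of 179 values of the 10 genes under alternative settings, 163 changed neither in direction nor in whether they were called. Cer1 was called in all 18. With the GC and length trends removed, without or with the replicate block, Foxh1 was not called (adjusted p 0.0682 and 0.0534), so that 0 of the 10 genes were called lower (1 at an unadjusted p under 0.05 in limma), and Lefty2 (0.0352) and Acvr2b (0.0393) turned positive under both. Leaving out each library in turn gave log2 fold changes of −0.329 to 0.0194 for Nodal, −0.119 to 0.303 for Lefty1, −0.213 to 0.228 for Lefty2 and −0.142 to 0.0849 for Tdgf1, and, with no change of sign, 0.19 to 0.45 for Gdf3, −0.41 to −0.16 for Acvr1b and −0.29 to −0.05 for Acvr2b, with 1 to 2 of the 10 genes called higher, 1 called lower, 2 to 7 other pathway genes called, and 80 to 340 genes called higher and 140 to 362 lower in all. The cause of these changes was not tested, beyond fewer libraries.

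The replicate block gave 76 genes called higher and 146 lower in limma, 77 and 207 in DESeq2 and 67 and 125 in edgeR. With it 2, 5 and 2 of the other pathway genes were called, and 1 of the 10 genes was called higher in DESeq2, which gave Cfc1 no adjusted p. It changed no call among the 10 genes in limma or edgeR. Removing the GC and length trends gave 107 higher and 150 lower, and with the block 49 and 91, with 3 other pathway genes called. Testing every gene with a read left 5 other pathway genes called of 8. Upper-quartile scaling gave 370 higher and 325 lower, where the deposited scaling gave 273 and 387. Among 24 other genes of the lists and nearest profiles, 346 of 425 values were unchanged in this sense and none changed sign. Depth limits the wildtype value of Cer1, which had 26 to 44 reads a library.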
